A study of Rattus norvegicus with 18 samples.

Results

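The genes described here encode the constitutive proteasome and its activators. Members were all genes whose symbol begins with Psm, followed by a letter from a to g and a number, except the immunoproteasome genes Psmb8, Psmb9 and Psmb10. This gave 45 of the 19880 genes in the table: 8 alpha and 8 beta genes of the 20S core, 6 ATPases and 14 other genes of the 19S particle, 4 activators (Psme1 to Psme4), and 5 genes for an inhibitor (Psmf1) and assembly chaperones (Psmg1 to Psmg4). The RNA came from primary ventricular cardiomyocytes (heart muscle cells) of Sprague-Dawley rats taken on postnatal day 2. Plating for 1 h served to reduce adherent non-muscle cells, but markers of fibroblasts and smooth muscle were still present in every group, as given below. Every culture, controls included, received 20 µM phenylephrine (PE), an alpha-1 adrenergic agonist that drives hypertrophic growth, for 24 h, and every culture was infected with adenovirus. The virus carried sORF6, sORF7 or sORF8, each a short open reading frame, or was the control virus for that sORF, which made 6 groups of 3 libraries. The labels name no promoter for any virus and leave open if the 3 libraries of each group are separate cultures. P-values therefore cover the library-to-library spread alone, part or all of which may be technical.

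The proteasome is the protease complex that degrades ubiquitin-tagged proteins in the cytosol and nucleus. Its barrel-shaped 20S core is built of stacked alpha and beta rings, and the beta subunits Psmb5, Psmb6 and Psmb7 carry the constitutive catalytic sites. The 19S particle caps the core, recognises ubiquitin, and unfolds substrates with its ring of ATPases. Psme1 and Psme2 form PA28 alpha/beta, an interferon-inducible cap that opens the core without ubiquitin, Psme3 forms the nuclear PA28 gamma, and Psme4 is PA200. In heart muscle the proteasome disposes of misfolded and sarcomeric proteins, and its activity is known to change in hypertrophy.

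Depth was 15697177 to 17658137 estimated counts per library. Each member passed the filter on low counts, so all 45 were among the 14870 genes tested with edgeR's quasi-likelihood test, and "called" below means an adjusted p (Benjamini-Hochberg over all genes tested) under 0.05. The 7 cardiomyocyte markers were present in every group, with a summed level of 20963 to 24745 FPKM (a level scaled to transcript length and library size) in the sORF6 and sORF7 experiments and 15695 to 18196 FPKM in the sORF8 experiment. Control replicate 2 of sORF6 (510597 against 479306 and 481529) and control replicate 1 of sORF7 (486768 against 503314 and 509661) lay apart from the rest of their groups in FPKM summed over all genes. Some results that rest on them, among them the counts of members called, are also given without them. Of the members called with sORF6 or sORF7, only Psmd12 with sORF6 missed the threshold when 1 of these libraries was left out.

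With sORF6, Psme1, Psme2 and Psmd12 fell and no member rose. With sORF7, Psme1, Psme2, Psme4, Psmf1 and Psmd7 rose and none fell. With sORF8, Psma3 and the near-silent Psmb11 fell. Apart from Psmb11, every called change was between 1.12-fold and 1.37-fold. The count of members called was 3 of 45 with sORF6 (6.67%, all lower, where 2.88% of all genes were called lower and 0.968% higher), 5 of 45 with sORF7 (11.1%, all higher, against 4.12% of all genes called higher and 3.66% lower) and 2 of 45 with sORF8 (4.44%, both lower, against 1.72% of all genes called lower and 2.03% higher). These shares stood above the background in each case, but each rests on 5 or fewer genes. In the empty directions, DESeq2 and limma also called 0 members. At an unadjusted p under 0.05, edgeR had 0 higher with sORF6, 1 lower with sORF7 and 0 higher with sORF8.

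In the 9 control-virus libraries, 31 of the 45 genes had a mean level between 50 and 220 FPKM. Psmb1, a non-catalytic beta subunit, was the most abundant at 216 ± 16.7 FPKM (SD, n = 9), with libraries from 192 to 236. Psmb7 came second at 151 ± 18.9 FPKM, and the ranges of these genes did not overlap. Leaving out Psma8 and Psmb11, the 7 alpha genes spanned 68.7 (Psma3) to 142 FPKM (Psma2), a 2.06-fold range, and the 7 beta genes 94.0 (Psmb2) to 216 FPKM, a 2.30-fold range. The 6 ATPases ran from 45.1 FPKM for Psmc6 to 148 FPKM for Psmc1. Thus most genes of the core and the ATPase ring sat within a few-fold of each other.

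All 5 assembly and inhibitor genes, the 19S assembly chaperones Psmd5, Psmd9 and Psmd10, Psma8 and Psmb11 made up the 10 members under 35 FPKM. Psmg1 led the assembly chaperones at 31.8 ± 3.05 FPKM, and Psmd10 stood at 7.75 ± 1.65 FPKM. Psma8, the alpha subunit of spermatogenic cells, and Psmb11, the catalytic subunit of thymic epithelium, were at 0.537 ± 0.206 and 0.518 ± 0.224 FPKM, with 6.14 to 38.3 estimated counts per library between them. The rule takes both in, but at this level they are not part of the constitutive set in these cells. Of the 44 neighbours in the order of levels, 40 overlapped over the 9 libraries. The 4 that did not were Psmb1 above Psmb7, Psmg1 above Psmf1, Psmg3 above Psmd10, and Psmd10 above Psma8.

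**Figure D1:**
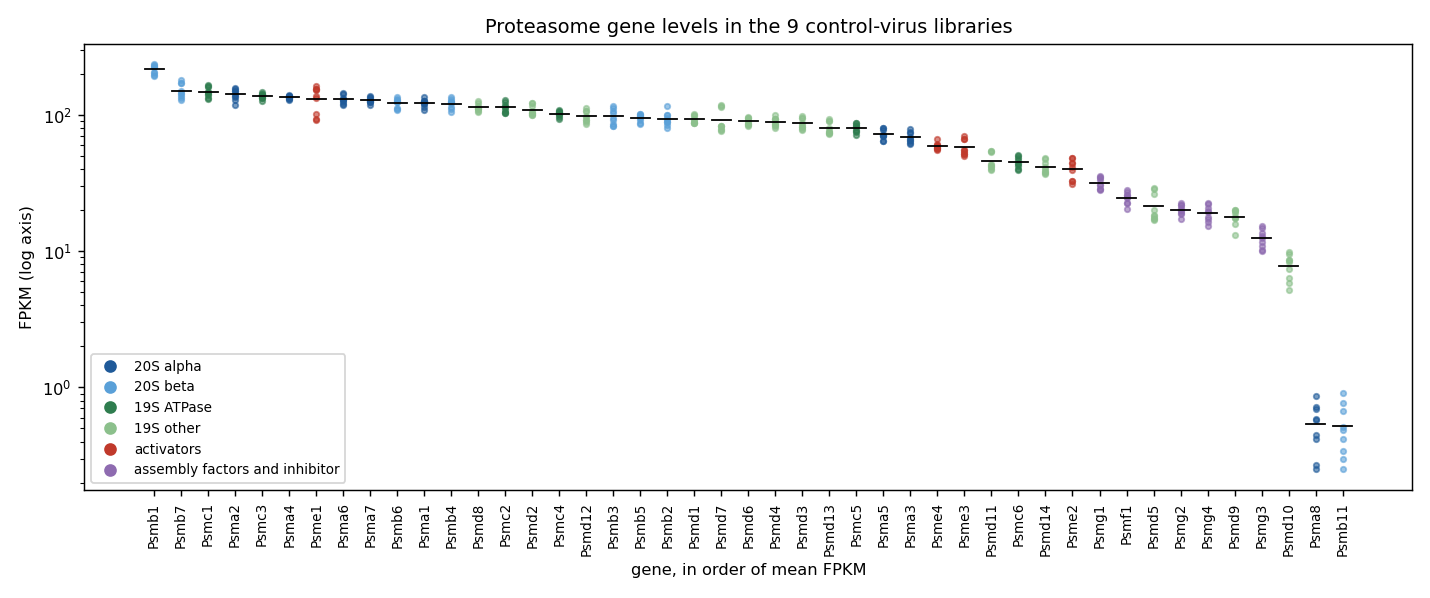
FPKM (log axis) of the 45 genes in the 9 control-virus libraries, in order of mean FPKM. Points are libraries, black lines are means and colours mark the part of the complex. Psmb1 stands at the left at 216 FPKM, most core genes form a plateau, and Psma8 and Psmb11 lie under 1 FPKM at the right.

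Psme1 (gene 29630, chromosome 15, 34256071 to 34258948, plus strand) and Psme2 (gene 29614, chromosome 15, 34265552 to 34269851, minus strand) are neighbours in Rnor_6.0, 6603 bases apart and facing each other. Psme4 (gene 498433) lies on chromosome 14 at 115166165 to 115269041, plus strand, and Psme3 (gene 287716) on chromosome 10 at 89236255 to 89257574, plus strand. The 250 bases before the start are shown for Psme1 and Psme2, which changed together, and for Psme4 and Psmd7, among those raised with sORF7. They are from RefSeq, build GRCr8, written 5′ to 3′ along each gene: chr15:33038721-33038970 on the plus strand for Psme1, chr15:33052752-33053001 on the minus strand for Psme2, chr14:108706393-108706642 on the plus strand for Psme4, and chr19:52411317-52411566 on the minus strand for Psmd7. Capitals mark matches to the 4 motifs named after them.
Psme1: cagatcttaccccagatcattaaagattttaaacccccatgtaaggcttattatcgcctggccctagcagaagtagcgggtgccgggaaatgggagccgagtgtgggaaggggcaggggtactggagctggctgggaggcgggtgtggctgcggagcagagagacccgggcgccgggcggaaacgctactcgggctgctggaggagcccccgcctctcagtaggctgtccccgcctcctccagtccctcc
Psme2: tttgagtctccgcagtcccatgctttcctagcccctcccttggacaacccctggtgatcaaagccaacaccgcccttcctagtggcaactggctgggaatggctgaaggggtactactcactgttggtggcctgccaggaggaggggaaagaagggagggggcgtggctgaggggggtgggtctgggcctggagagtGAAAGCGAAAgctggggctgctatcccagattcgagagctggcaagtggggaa
Psme4: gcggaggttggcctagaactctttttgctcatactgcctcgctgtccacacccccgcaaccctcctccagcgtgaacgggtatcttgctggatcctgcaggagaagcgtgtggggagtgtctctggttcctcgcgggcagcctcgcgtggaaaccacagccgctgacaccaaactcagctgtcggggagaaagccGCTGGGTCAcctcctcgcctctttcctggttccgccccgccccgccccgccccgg
Psmd7: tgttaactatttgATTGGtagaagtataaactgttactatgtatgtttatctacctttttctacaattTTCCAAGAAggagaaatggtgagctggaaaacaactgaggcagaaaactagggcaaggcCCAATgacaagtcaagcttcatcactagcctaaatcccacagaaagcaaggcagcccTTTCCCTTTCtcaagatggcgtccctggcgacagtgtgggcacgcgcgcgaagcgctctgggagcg

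All 4 motifs were searched on both strands, from 250 bases before to 50 after each start site, in the 40 members with a RefSeq entry and in all 33469 promoters. The core of the interferon-stimulated response element (GAAA, any 2 bases, GAAA) was in 3.92% of all promoters and in 5 of the 40 (12.5%): Psma4, Psmb3, Psmd7, Psme2 and Psmg4. Psme2 carries it as GAAAGCGAAA, beginning 53 bases before the start, and Psmd7 as TTTCCCTTTC, on the other strand, beginning 66 bases before. Psme1 holds none of the 4 motifs in this window. TTCNNNGAA, the gamma-activated site, was in 8.87% of all promoters and in 3 of the 40 (Psmc6, Psmd3 and Psmd7). The antioxidant response element core TGACNNNGC, the kind of site bound by the proteasome gene activator NRF1, was in 12.1% of all and 8 of the 40 (20%), among them Psmb5 and Psme4. The NF-Y box CCAAT was in 37.5% of all and 19 of the 40 (47.5%). Psmf1, which also rose with sORF7 and is not printed, matched only this box, on the other strand, beginning 92 bases before the start. No match in the printed windows overlapped another. A match describes letters only, since no binding was measured.

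Psme2, the beta chain of PA28, had the largest change among the activators in both the sORF6 and sORF7 comparisons. In normalised CPM (counts scaled to the effective library size), the libraries of the sORF6 control stood at 56.4, 59.6 and 52.6 and those with sORF6 at 42.4, 44.0 and 42.7. All sORF6 libraries were therefore lower than all their controls. Psme2 fell 1.31-fold (log2 fold change -0.38 ± 0.07 (SE), n = 3 against 3, edgeR adjusted p = 0.00252). With sORF7 the direction was opposite. The controls stood at 64.4, 59.8 and 64.6 normalised CPM and the sORF7 libraries at 93.9, 78.9 and 85.8, again without overlap. Psme2 rose 1.37-fold (log2 0.45 ± 0.07, edgeR adjusted p = 0.00029). With sORF8 it was at 40.6, 42.6 and 42.8 in controls and 42.7, 46.8 and 38.2 with the sORF, so the groups overlapped (log2 0.02 ± 0.07, edgeR adjusted p = 0.938).

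Psme1, the alpha chain of PA28, changed the same way. Its sORF6 controls stood at 137, 152 and 132 normalised CPM and the sORF6 libraries at 106, 122 and 115. The groups did not overlap, and Psme1 fell 1.23-fold (log2 -0.29 ± 0.06, edgeR adjusted p = 0.00814). Without sORF6 replicate 1, the lowest of these libraries, the adjusted p was 0.0676, and with only these 6 libraries in the fit it was 0.0634. In the sORF7 experiment the controls stood at 152, 154 and 160 normalised CPM and the sORF7 libraries at 209, 189 and 191. Psme1 rose 1.26-fold (log2 0.34 ± 0.06, edgeR adjusted p = 0.00155), again without overlap. With sORF8 the values were 97.7, 90.7 and 88.8 in controls against 103, 95.6 and 91.4, with overlapping groups (log2 0.07 ± 0.06, edgeR adjusted p = 0.67). Psme1 overlaps Emc9, which lies on the opposite strand at 1.40 to 4.78 FPKM against 91.9 to 216 FPKM for Psme1, and reads of the 2 genes cannot be told apart without strand.

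The members of PA28 alpha/beta kept their ratio to each other more closely than their ratio to the core. Psme1 FPKM divided by Psme2 FPKM was 3.39 ± 0.09 in sORF6 controls and 3.60 ± 0.18 with sORF6, and 3.35 ± 0.14 and 3.09 ± 0.13 in the sORF7 experiment (SD, n = 3 each). Psme1 FPKM divided by the mean FPKM of the 14 core genes other than Psma8 and Psmb11 was 1.24 ± 0.01 in sORF6 controls and 1.08 ± 0.05 with sORF6. It was 1.30 ± 0.03 in sORF7 controls and 1.59 ± 0.08 with sORF7. In the sORF8 experiment it was lower in both groups, at 0.744 ± 0.035 and 0.813 ± 0.041. These ratios are descriptions and were not tested.

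**Figure D2:**
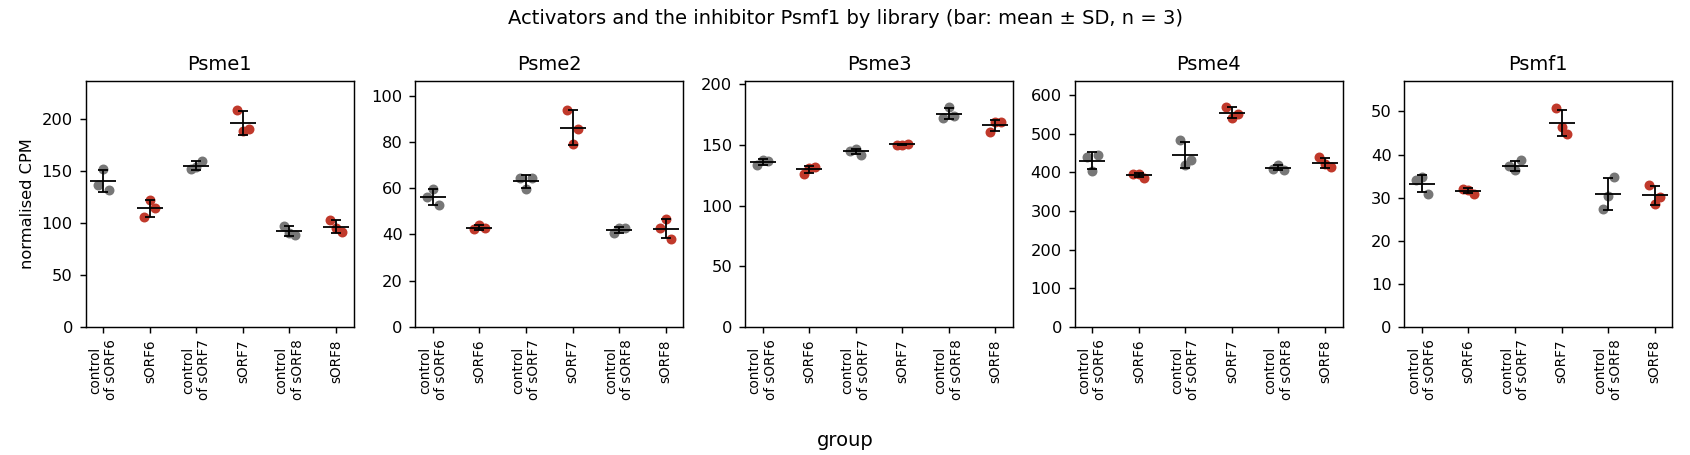
Normalised CPM of Psme1, Psme2, Psme3, Psme4 and Psmf1 in each library by group (grey: control virus, red: sORF virus, black: mean ± SD, n = 3), with each axis from 0. Psme1 and Psme2 are lower with sORF6 and higher with sORF7 than in their own controls, while Psme3 differs little within any experiment.

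Psme4, a large single-chain cap of the core, rose with sORF7. Its sORF7 controls stood at 483, 418 and 432 normalised CPM and the sORF7 libraries at 569, 541 and 550. The groups did not overlap, although control replicate 1 was well above the other controls, and the rise was 1.25-fold (log2 0.32 ± 0.05, edgeR adjusted p = 0.000219). It passed in all 15 other settings, the one without control replicate 1 among them. With sORF6, Psme4 stood at 439, 405 and 445 in controls against 395, 396 and 386, without overlap, but did not pass (log2 -0.13 ± 0.05, edgeR adjusted p = 0.151). It was called lower in 4 other settings, among them without control replicate 2 of sORF6. With sORF8 the groups overlapped (log2 0.04 ± 0.05, edgeR adjusted p = 0.704).

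Psme3, the nuclear PA28 gamma, was called in none of the 3 comparisons by edgeR, DESeq2 or limma. Its means moved from 136 ± 2.34 to 130 ± 3.05 normalised CPM with sORF6, from 144 ± 2.40 to 150 ± 0.47 with sORF7 and from 176 ± 4.88 to 166 ± 4.63 with sORF8 (SD, n = 3). The groups did not overlap in any of these, yet the log2 fold changes were only -0.07, 0.06 and -0.08, each ± 0.03, with edgeR adjusted p of 0.37, 0.368 and 0.215. Psme3 overlaps Aoc3 on the same strand, at 2.79 to 5.45 FPKM.

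Psmf1, which encodes the 20S inhibitor PI31 (gene 689852, chromosome 3, 147236553 to 147263280, minus strand), rose with sORF7. Controls stood at 37.2, 36.4 and 38.6 normalised CPM and sORF7 libraries at 50.7, 46.5 and 44.7, with no overlap. The rise was 1.26-fold (log2 0.34 ± 0.07, edgeR adjusted p = 0.00724), and without sORF7 replicate 1, the highest library, the adjusted p was 0.0512. With sORF6 and sORF8 its groups overlapped (log2 -0.07 ± 0.08 and -0.01 ± 0.08, edgeR adjusted p = 0.724 and 0.971). The assembly chaperones Psmg1 to Psmg4, which pair the alpha subunits into rings, were called in no comparison with a control virus by edgeR, DESeq2 or limma, and none had an unadjusted p under 0.05. Their log2 fold changes ran from -0.17 (Psmg1, sORF7) to 0.08 (Psmg3, sORF6). They have few counts, with 140.8 to 642 per library, and standard errors up to 0.13. Psmg2, at 17.24 to 22.59 FPKM, overlaps Cep76 (13.35 to 19.74) and Ptpn2 (13.47 to 20.63 FPKM) on the same strand, so its count is uncertain. In all, 22 members overlap another gene of the table.

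Among the 16 core genes, none was called with sORF6 or sORF7 by edgeR, DESeq2 or limma. With sORF8, edgeR called 2 of the 16 lower (Psma3 and Psmb11), where 1.72% of all genes were called lower. DESeq2 called 1 and limma 2. At an unadjusted p under 0.05, 5 were lower with sORF6 (Psma3, Psma7, Psmb2, Psmb4 and Psmb5) and 1 lower with sORF7 (Psma8). With sORF8, 4 were lower at that level (Psma3, Psma5, Psma6 and Psmb11). The 3 constitutive catalytic genes show the size of the differences. Psmb5, the chymotrypsin-like subunit, stood at 73.6, 79.5 and 71.2 normalised CPM in sORF6 controls and 68.8, 68.1 and 68.7 with sORF6 (log2 -0.13 ± 0.06, edgeR adjusted p = 0.293). Those groups did not overlap, but the gap was small. In the sORF7 experiment it was at 76.6, 85.2 and 82.8 against 81.6, 87.3 and 75.3, and in the sORF8 experiment at 81.5, 83.5 and 80.5 against 81.5, 78.9 and 75.4, with overlap in both.

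Psmb6, the caspase-like subunit, overlapped between groups with sORF6 and sORF7 and was slightly lower without overlap with sORF8. It stood at 80.1, 91.4 and 81.7 normalised CPM in sORF6 controls against 79.3, 82.2 and 77.7, at 81.1, 97.2 and 97.6 in sORF7 controls against 92.0, 93.7 and 96.5, and at 88.5, 92.6 and 90.2 in sORF8 controls against 83.9, 86.3 and 84.8. Its log2 fold changes were -0.08, 0.03 and -0.09, each ± 0.06. Psmb7, the trypsin-like subunit, stood at 125, 141 and 127 normalised CPM in sORF6 controls against 121, 132 and 122, at 131, 138 and 143 in sORF7 controls against 141, 145 and 147, and at 162, 161 and 169 in sORF8 controls against 161, 145 and 152. Its log2 fold changes were -0.07, 0.08 and -0.10, each ± 0.05. Psmb7 overlapped in all 3. Neither gene was called, and their edgeR adjusted p lay between 0.326 and 0.832. Psmb1, the most abundant member, had log2 fold changes of -0.09, 0.07 and -0.08, each ± 0.06.

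Psma3 (gene 29670, chromosome 6, 93423004 to 93544241, plus strand), an alpha-ring subunit, fell with sORF8. Controls stood at 178, 182 and 187 normalised CPM and sORF8 libraries at 170, 161 and 156, without overlap. The sORF8 controls were the highest control group, since the sORF6 and sORF7 controls had means of 154 ± 3.71 and 164 ± 4.61 (SD, n = 3). The fall was 1.12-fold (log2 -0.17 ± 0.04, edgeR adjusted p = 0.0352). It missed the threshold in 7 of 15 other settings, among them without any control replicate and without sORF8 replicate 2 or 3 (adjusted p 0.0574 to 0.15). The annotated span of Psma3 takes in Arid4a and Tomm20l on the same strand, and its effective length varied from 2393 to 2510 bases between libraries, so its count is uncertain.

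Psmb11 (gene 290206, chromosome 15, 33267413 to 33273587, plus strand) lies beside Psmb5. It stood at 2.38, 1.74 and 2.01 normalised CPM in sORF8 controls and 0.815, 1.03 and 0.776 with sORF8. The groups did not overlap and Psmb11 fell 2.32-fold (log2 -1.21 ± 0.31, edgeR adjusted p = 0.0339). The fall was 0.42 on the log2(FPKM + 1) scale, and DESeq2 gave no adjusted p. Without any 1 of the 6 libraries the adjusted p rose to between 0.0541 and 0.128. In the other 4 groups Psmb11 ranged from 0.67 to 1.49 normalised CPM, so the sORF8 controls were the high group.

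In the 19S particle 1 of 20 genes was called with sORF6 (lower, where 2.88% of all genes were). With sORF7 it was 1 (higher, where 4.12% of all genes were) and with sORF8 it was 0. With sORF8, edgeR had 3 lower and 0 higher at an unadjusted p under 0.05, DESeq2 called 0 and limma called 1. At that unadjusted level edgeR had 6 lower with sORF6 and 4 higher with sORF7. DESeq2 called 1 in each of these, and limma called 1 with sORF6 and 2 with sORF7. Psmd12, the lid subunit Rpn5 (gene 287772, chromosome 10, 95706786 to 95725458, plus strand), stood at 137, 146 and 131 normalised CPM in sORF6 controls and 120, 120 and 123 with sORF6. The groups did not overlap and Psmd12 fell 1.14-fold (log2 -0.19 ± 0.04, edgeR adjusted p = 0.013). It missed the threshold without control replicate 2 of sORF6 (0.0647), without sORF6 replicate 1 or 2 (0.0574 and 0.0566), and with only these 6 libraries in the fit (0.0994). With sORF7 and sORF8 Psmd12 was within 0.02 log2 of its controls.

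Psmd7, the lid subunit Rpn8, partner of the deubiquitinating subunit Psmd14 (gene 307821, chromosome 19, 39639432 to 39646718, minus strand), rose with sORF7. Controls stood at 124, 134 and 132 normalised CPM and sORF7 libraries at 149, 150 and 141, without overlap. The rise was 1.13-fold (log2 0.18 ± 0.04, edgeR adjusted p = 0.00942), and with only these 6 libraries in the fit the adjusted p was 0.0743. With sORF8 it stood at 183, 177 and 181 in controls against 161, 164 and 171, lower without overlap, but did not pass (log2 -0.13 ± 0.04, edgeR adjusted p = 0.0877). With sORF6 the groups overlapped at 123, 133 and 126 against 131, 127 and 129.

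The 6 ATPases, which unfold substrates, were called in no comparison with a control virus by edgeR, DESeq2 or limma. At an unadjusted p under 0.05, edgeR had 2 lower with sORF6 and 1 higher with sORF7. Their log2 fold changes ran from -0.12 to -0.07 with sORF6, from -0.02 to 0.12 with sORF7 and from -0.06 to 0.01 with sORF8. The ubiquitin receptor Psmd4 (Rpn10) had -0.05, -0.03 and -0.06, each ± 0.05. The scaffold genes Psmd1 (Rpn2) and Psmd2 (Rpn1) stayed between -0.09 and 0.04. Psmd14 was less precise, with -0.06, -0.20 and -0.02, each ± 0.14.

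Small differences of the core and the 19S particle lay mostly to one side. Of the 34 genes of both without Psma8 and Psmb11, 31 had a log2 fold change below 0 with sORF6 (median -0.08), 26 above 0 with sORF7 (median 0.03) and 27 below 0 with sORF8 (median -0.06). Over all genes tested 49.7% were below 0 with sORF6, 49.2% above 0 with sORF7 and 49.7% below 0 with sORF8, with medians of 0.00. Without control replicate 2 of sORF6 the sORF6 median was -0.04, with 28 of 34 below 0. Without this library and control replicate 1 of sORF7, the medians were -0.04, 0.01 and -0.05. With a correction for transcript length they were -0.05, 0.02 and -0.05. Members are short, with a median effective length of 1330 bases against 2555 for all genes tested, and over 12512 genes the log2 fold change varied with length (Spearman's rho 0.23 with sORF6, -0.13 with sORF7 and 0.06 with sORF8, across genes, which are not independent replicates).

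**Figure D3:**
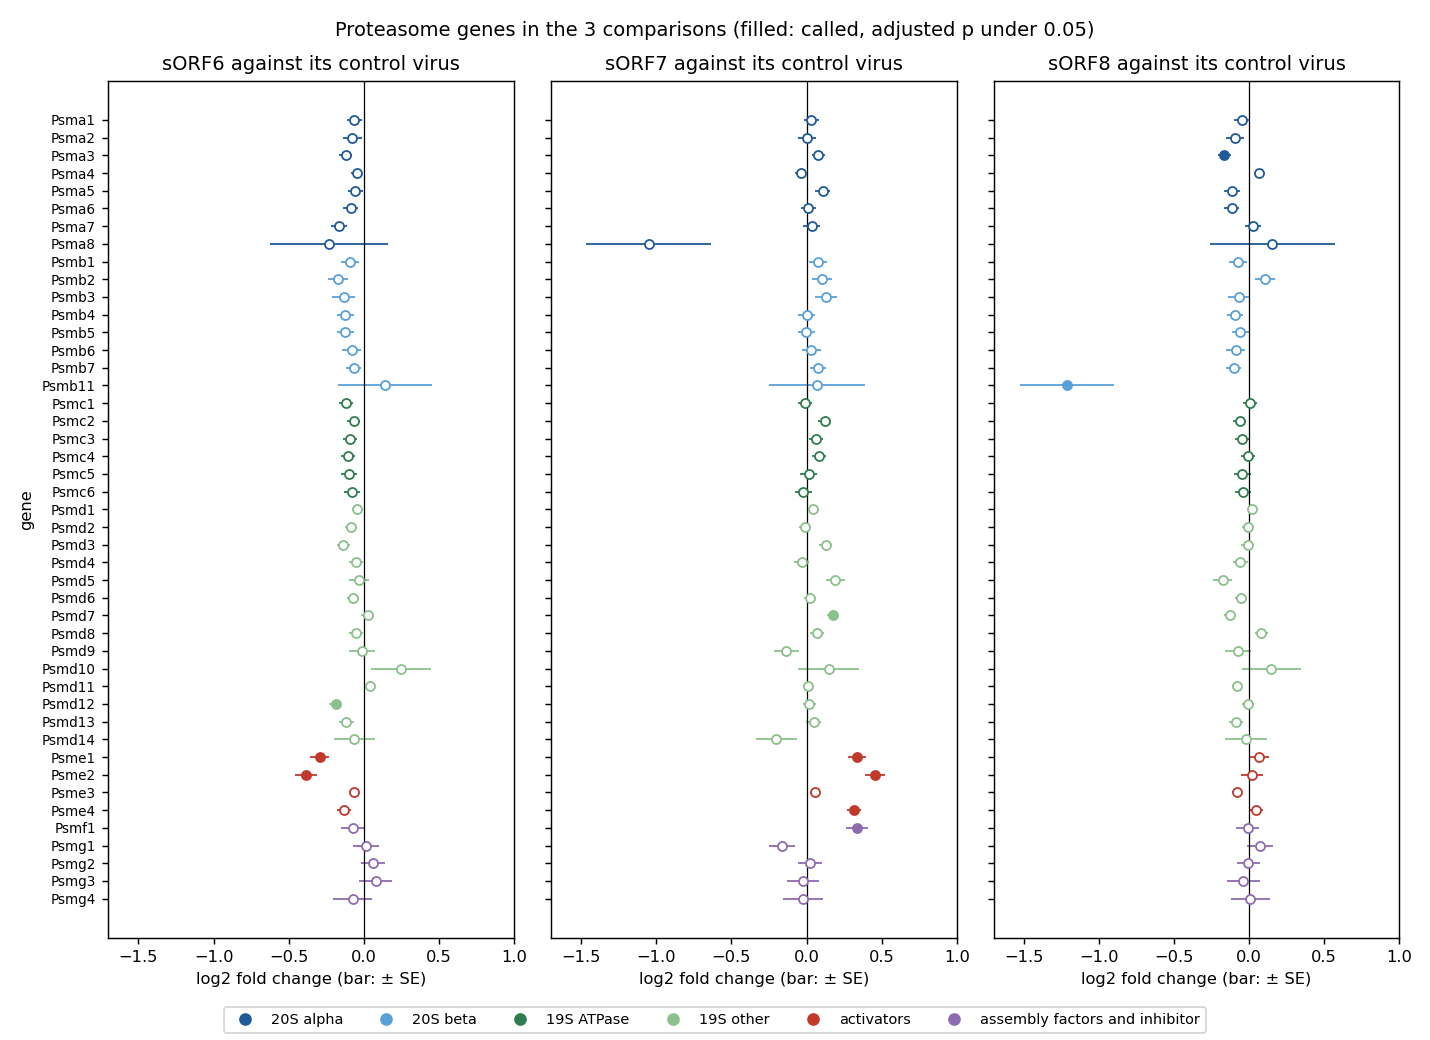
Log2 fold change of each gene against its own control virus (point, with SE as bar) in the 3 comparisons, coloured by part of the complex. Filled points were called: Psme1, Psme2 and Psmd12 lower with sORF6, Psme1, Psme2, Psme4, Psmf1 and Psmd7 higher with sORF7, and Psma3 and Psmb11 lower with sORF8.

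Groups without overlap were read against the same background. With sORF6, 17 members were lower than controls in every library and 1 higher, or 37.8% and 2.22% of 45, where 10.6% and 9.99% of all genes were. With sORF7, 10 were higher and 1 lower (22.2% and 2.22%), where 11.8% and 11.3% of all genes were. With sORF8, 9 were lower and 2 higher (20% and 4.44%), where 12.8% and 11.6% were. Members of one complex share libraries and scaling, so these counts are descriptions.

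Summed FPKM per part gives the same picture on the level scale. The 16 core genes summed to 1547, 1724 and 1530 FPKM in sORF6 controls and 1440, 1518 and 1493 with sORF6, where the controls reach their highest value in replicate 2. In the sORF7 experiment the sums were 1630, 1703 and 1746 against 1788, 1743 and 1784, and in the sORF8 experiment 1818, 1779 and 1810 against 1752, 1679 and 1711. The 4 activators summed to 289, 305 and 286 FPKM in sORF6 controls against 238, 257 and 249, and to 324, 310 and 324 in sORF7 controls against 424, 384 and 396. In the sORF8 experiment they summed to 256, 255 and 249 against 261, 257 and 245. The activators thus overlapped with their controls in the sORF8 experiment, and in the sORF6 and sORF7 experiments they did not. The core sums overlapped with their controls in the sORF7 experiment, and in the sORF6 and sORF8 experiments they were lower without overlap. The 19S sums did the same. They were 1502, 1595 and 1493 FPKM in sORF6 controls against 1423, 1440 and 1451. In the sORF7 experiment they were 1515, 1538 and 1621 against 1652, 1610 and 1631. In the sORF8 experiment they were 1762, 1750 and 1747 against 1701, 1683 and 1724.

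**Figure D4:**
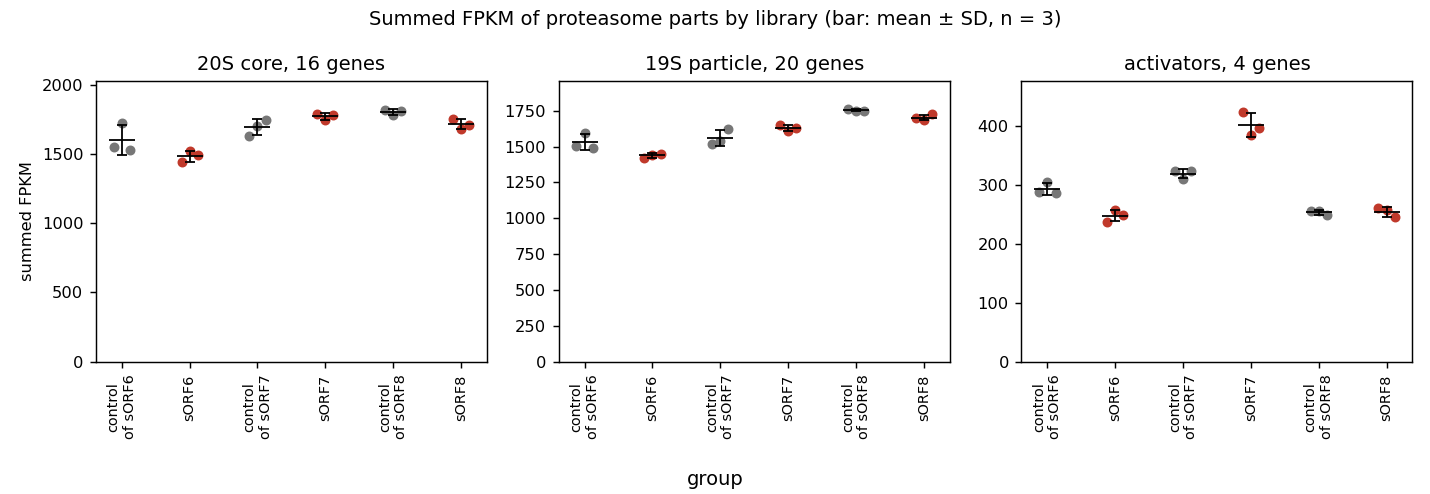
Summed FPKM of the 20S core (16 genes), the 19S particle (20 genes) and the activators (4 genes) in each library by group (grey: control virus, red: sORF virus, black: mean ± SD, n = 3), with each axis from 0. The activator sum is 248 ± 9.52 with sORF6 and 401 ± 20.3 with sORF7, while the core and 19S sums differ from their controls by smaller shares.

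Whether the responses themselves differ was tested as a difference of differences, each sORF against its own control. Between sORF6 and sORF7, 7 of 45 members were called (15.6%, all lower with sORF6, where 6.27% of all genes were called lower). Psme2 differed by -0.84 ± 0.10 (log2, SE, edgeR adjusted p = 8.72e-06), Psme1 by -0.63 ± 0.09 (5.91e-05) and Psme4 by -0.45 ± 0.07 (0.000106). The other 4 were Psmd3, Psmf1, Psmd12 and Psma3, from -0.41 to -0.20. Between sORF6 and sORF8, Psme1 and Psme2 were called (4.44%, where 2.82% of all genes were called lower), with differences of -0.36 ± 0.09 and -0.40 ± 0.10 (edgeR adjusted p = 0.027 and 0.0314). Between sORF7 and sORF8, 5 were called higher with sORF7 (11.1%, where 3.8% of all genes were): Psmd7, Psme2, Psme4, Psmd5 and Psma3.

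Psmd3 and Psmd5 were called as such a difference but, in the main edgeR fit, in no single comparison with a control virus. In other settings Psmd3 was called higher with sORF7 in 4, limma at either pseudocount among them, and lower with sORF6 in 2. Psmd5 was called higher with sORF7 in 1, without control replicate 3 of sORF7. Psmd3, the lid subunit Rpn3, stood at 175, 187 and 169 normalised CPM in sORF6 controls against 155, 166 and 162, and at 166, 177 and 181 in sORF7 controls against 195, 193 and 185. It was lower without overlap in the first and higher without overlap in the second, yet neither passed on its own (edgeR adjusted p = 0.0931 and 0.0804). Psmd5, a chaperone of 19S assembly, stood at 36.4, 38.4 and 41.5 normalised CPM in sORF7 controls against 46.4, 42.4 and 44.0, and at 58.0, 58.7 and 53.4 in sORF8 controls against 49.2, 51.7 and 49.5. It was higher without overlap in the first and lower without overlap in the second, with log2 fold changes of 0.19 ± 0.06 with sORF7 and -0.18 ± 0.06 with sORF8 (edgeR adjusted p = 0.0808 and 0.137).

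The control groups of the 3 sORFs differed from each other in 26 of 45 members by a joint edgeR F test (57.8%, where 38.4% of all genes were called). The sORF8 controls were the highest group for 20 of these and the lowest for 5, which were Psmb2, Psmd8, Psme1, Psme2 and Psmf1, and Psmg3 was highest in sORF7 controls and lowest in sORF6 controls. Psmd7 was 1.42-fold and Psmd5 1.54-fold higher in sORF8 controls than in sORF6 controls, and Psmd11 (Rpn6), which joins the lid to the core, 1.33-fold. Psme1 was 1.68-fold lower and Psme2, at 42.0 ± 1.24 against 62.9 ± 2.68 normalised CPM, also lower in sORF8 controls than in sORF7 controls. The joint edgeR F test over the 3 control groups gave them adjusted p of 5.37e-08 and 7.84e-06, and single pairs of control groups were not tested. Psme3 went against Psme1 and Psme2 and was 1.29-fold higher in sORF8 than in sORF6 controls. The control groups are labelled only by their sORF, so the virus, the culture and the sequencing run cannot be told apart.

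**Figure D5:**
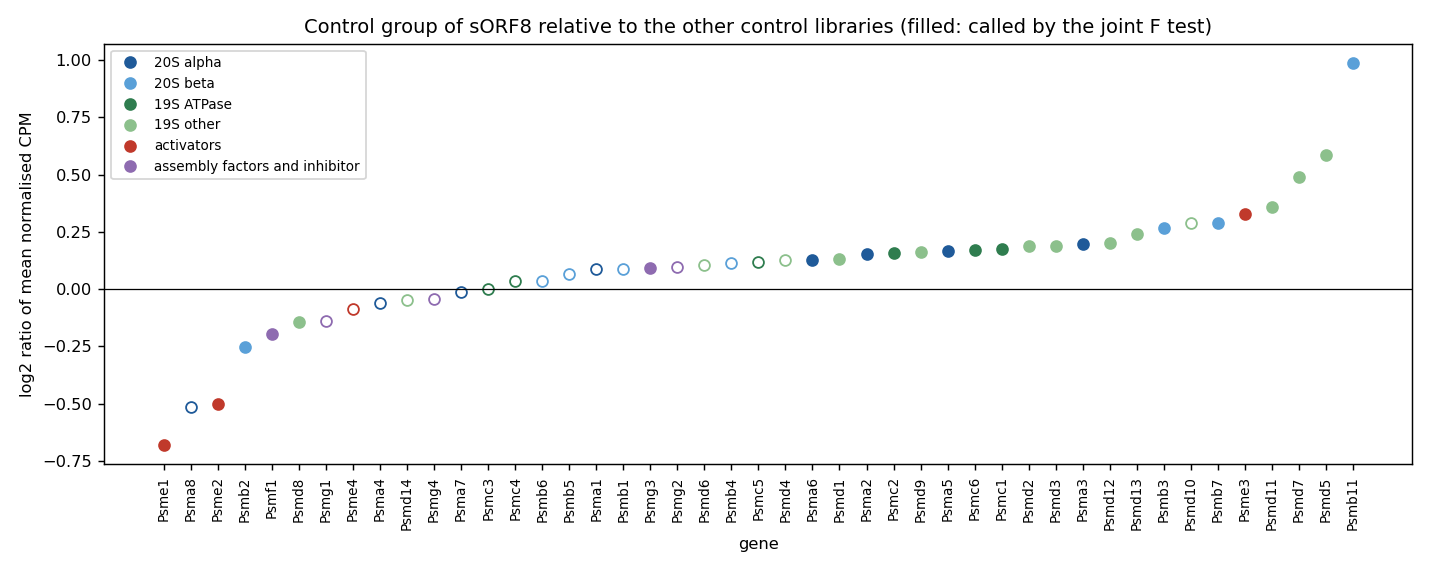
Log2 ratio of mean normalised CPM in the 3 sORF8 control libraries to that in the other 6 control libraries, for each gene, coloured by part of the complex. Filled points were called by the joint F test over the 3 control groups. Psme1 and Psme2 lie at the left at -0.68 and -0.50, and Psmd5 and Psmd7 near the right at 0.59 and 0.49.

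The immunoproteasome genes, which the rule leaves out, fell with sORF6 in 3 of 3 cases, where 2.88% of all genes were called lower. They rose with sORF7 in 3 of 3, where 4.12% were called higher. Psmb8 was at -1.10 ± 0.16 with sORF6 and 1.00 ± 0.14 with sORF7 (log2, SE, edgeR adjusted p = 0.000173 and 0.000132). Psmb8 FPKM as a share of Psmb8 and Psmb5 FPKM went from 5.65% ± 0.99 to 2.96% ± 0.51 with sORF6 and from 6.33% ± 0.58 to 11.9% ± 1.80 with sORF7, and was 3.41% ± 0.13 and 3.18% ± 0.22 in the sORF8 experiment (SD, n = 3).

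Other genes of the pathway were counted in 3 lists. Of 13 measured proteasome-associated factors, edgeR called 0 with sORF6 (4 at an unadjusted p under 0.05, 1 by DESeq2 and 0 by limma), 1 rose with sORF7 (Zfand5, a zinc-finger protein that stimulates the 26S proteasome, log2 0.14 ± 0.04, 7.69% of the list against 4.12% of all genes called higher) and 2 fell with sORF8 (Zfand5, -0.18 ± 0.04, and Zfand2a, -0.32 ± 0.04, or 15.4% against 1.72% called lower). Of 18 genes for ubiquitin, its activating enzymes, shuttle receptors and the p97 segregase, 0 were called with sORF6 by edgeR, DESeq2 or limma (0 at an unadjusted p under 0.05) and Rad23b, a shuttle receptor, rose with sORF7 (0.11 ± 0.03, 5.56% against 4.12%). Of 12 genes of the NRF1 axis, which restores proteasome genes after proteasome inhibition, Mafk rose with sORF6 (0.18 ± 0.04), Mafg and Nfe2l2 rose with sORF7 (0.19 ± 0.04 and 0.16 ± 0.04) and Mafg fell with sORF8 (-0.23 ± 0.04). These are 8.33% of the list with sORF6 against 0.968% of all genes called higher, 16.7% with sORF7 against 4.12%, and 8.33% with sORF8 against 1.72% called lower, each resting on 1 or 2 genes. Nfe2l1, which encodes NRF1 itself, had 0.04, 0.07 and -0.02, each ± 0.04. The medians of the 3 lists lay between -0.05 and 0.07 in all 3 comparisons. Mafg, Zfand2a and Zfand5 had higher means in sORF8 controls than in the other control groups, with Zfand2a at 71.8 ± 0.32 normalised CPM against 35.9 ± 0.38 in sORF6 controls and 37.1 ± 1.59 in sORF7 controls (SD, n = 3).

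In bulk RNA, fewer cells of a type and less RNA per cell cannot be told apart. Fibroblast markers summed to 1379 to 1520 FPKM in sORF6 controls and 1524 to 1619 with sORF6 (1 of 6 called higher and 1 lower), and to 1408 to 1555 and 1370 to 1436 in the sORF7 experiment (2 of 6 called lower). Leukocyte markers, of a cell type that expresses PA28 strongly, summed to 41.0 to 47.3 and 46.3 to 50.6 FPKM in the sORF6 experiment (0 of 6 called by edgeR and DESeq2, 1 by limma, 5 at an unadjusted p under 0.05) and to 31.7 to 38.4 and 29.9 to 35.6 in the sORF7 experiment (2 of 6 called lower). Single leukocyte markers differed in direction. Csf1r and Lyz2 fell with sORF7 (log2 -0.49 ± 0.14 and -0.36 ± 0.10). With sORF6 both lay above 0 without being called (log2 0.29 ± 0.13 and 0.23 ± 0.09). C1qa, also not called, was at 0.27 ± 0.18 normalised CPM in sORF6 controls and 0.85 ± 0.26 with sORF6 (SD, n = 3). Cd68 had a log2 fold change of -0.04 ± 0.14 with sORF6. Cd14, not called, was at 7.58 ± 1.2 normalised CPM in sORF6 controls and 5.35 ± 0.83 with sORF6, and at 7.12 ± 0.36 and 9.29 ± 1.34 in the sORF7 experiment (SD, n = 3). Ptprc, also not called, had a log2 fold change of -0.39 ± 0.14 with sORF6 and -0.05 ± 0.14 with sORF7. Endothelial markers summed to 8.04 to 12.2 FPKM in all groups, with 0 of 5 called by edgeR, DESeq2 or limma in any comparison with a control virus (1 at an unadjusted p under 0.05 with sORF6, 0 with sORF7 and 1 with sORF8). Smooth muscle markers summed to 1893 to 2015 and 1755 to 1860 FPKM in the sORF6 experiment (1 of 4 called lower), and to 1907 to 2137 and 2123 to 2214 in the sORF7 experiment (0 of 4 called by any of the 3 tools, 1 at an unadjusted p under 0.05). With sORF8 they summed to 1653 to 1776 FPKM against 1555 to 1614 in controls (1 of 4 called higher). Cardiomyocyte markers summed to 15695 to 15858 FPKM in sORF8 controls and 18095 to 18196 with sORF8 (3 of 7 called higher), to 22152 to 24023 in sORF7 controls and 20963 to 21352 with sORF7 (1 of 7 called lower), and to 21795 to 24745 in sORF6 controls and 23369 to 23898 with sORF6 (1 called higher and 1 lower). Over all genes tested, 0.968% were called higher and 2.88% lower with sORF6, 4.12% and 3.66% with sORF7, and 2.03% and 1.72% with sORF8. No marker of any list was at 0 in all libraries. The part of these cell types in the proteasome results was not tested.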

How the data were processed

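RNA-seq of 18 libraries was used. The authors deposited estimated counts and FPKM per gene, and the submitters' processing notes name HISAT2 2.0.4, RSEM 1.2.12, DESeq2 1.4.5 and build Rnor_6.0. No source used here says if strand entered the counting. FPKM values the authors deposited served for levels between genes. Estimated counts were rounded, filtered with filterByExpr (14870 genes), scaled by TMM and fitted with edgeR 4.0.16 (R 4.3.3): 1 mean per group over 18 libraries, 12 residual degrees of freedom, common biological coefficient of variation 6.90%. The fit was tested on simulated counts. Normalised CPM are counts per TMM-scaled library size. Alternatives were DESeq2 1.42.0 and its size factors, no filter, limma 3.58.1 on log2(FPKM + 1) or log2(FPKM + 0.1), a length correction, a replicate block, only the 6 libraries of an experiment, and each library left out. Values per library are given for members called in a comparison with a control, Psmb5 to Psmb7, the activators, and the called differences of responses with the smallest p. Members and gene lists were chosen with earlier results of these data known. A result for 1 listed gene, and with it 1 list's sORF8 count, is not reported here. Promoters are from RefSeq GRCr8, and 40 of 45 members matched by both gene identifier and symbol. Libraries of a group were no duplicates (chi-square per degree of freedom at least 2.71).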

Additional observations from a re-analysis of the deposited data

Results flagged for a closer look

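A total of 14 differences between the responses of 2 sORFs passed an adjusted p under 0.05 (edgeR, difference of differences on the log2 scale). sORF6 minus sORF7 gave -0.8385 for Psme2, -0.6323 for Psme1, -0.4469 for Psme4, -0.4108 for Psmf1, -0.2645 for Psmd3, -0.2069 for Psmd12 and -0.1997 for Psma3. Those of Psme1, Psme2, Psme4 and Psmd3 passed in all 20 other settings, that of Psmf1 in 19 (0.0529 without the 2 control libraries apart in summed FPKM), that of Psmd12 in 13 and that of Psma3 in 10. sORF6 minus sORF8 gave -0.362 for Psme1 and -0.4029 for Psme2. Psme1 missed the threshold in 6 of 20 settings, without control replicate 2 of sORF6, control replicate 2 or 3 of sORF8, sORF6 replicate 1 or 3, or sORF8 replicate 1 (adjusted p up to 0.0921), and Psme2 in 10 of 20, which are the removal of any 1 of these 12 libraries except control replicate 3 of sORF6, sORF6 replicate 2 and sORF8 replicate 3, and the removal of the 2 control libraries together (up to 0.0971). sORF7 minus sORF8 gave 0.3064 for Psmd7, 0.3678 for Psmd5, 0.4355 for Psme2, 0.2723 for Psme4 and 0.2466 for Psma3, of which only that of Psma3 missed the threshold in any setting (0.0567 without sORF7 replicate 1). The pairs of differences share the libraries of 1 experiment.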

How the results depend on the processing

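No member's called direction reversed in any setting. Of 50 called results for single members, 30 kept their call throughout and 20 lost it at least once. The counts of members called were as follows, and those for sORF7 and for the controls stayed within 1.5 times of their value in every setting run. For sORF6 it was 3, with 5 under the length correction, 1 with only the 6 libraries, and 1 to 4 with 1 library left out. For sORF7 it was 5, with 4 to 7 on leaving out 1 library. For sORF8 it was 2, with 3 by limma at a pseudocount of 1. Psmd7 was added there and under the length correction. The sORF8 count was 1 by DESeq2, without the filter and with the replicate block, and 0 to 1 on leaving out 1 library. For sORF6 against sORF7 it was 7, with 12 by limma at either pseudocount and 5 to 10 on leaving out 1 library. For sORF6 against sORF8 it was 2, with 4 under the length correction and 0 to 2 on leaving out 1 library. For sORF7 against sORF8 it was 5, with 11 by limma at a pseudocount of 1, 9 at 0.1, 11 under the length correction and 4 to 7 on leaving out 1 library. For the controls it was 26, with 21 to 33 on leaving out 1 library. Leaving out control replicate 2 of sORF6 and control replicate 1 of sORF7, chosen after seeing the data, gave 4, 5 and 3 for sORF6, sORF7 and sORF8. The cause of these shifts was not tested. Deviations of same-numbered libraries correlated weakly (-0.02 to 0.18), and whether replicate numbers pair the samples was not tested. 6 of 9 sORF libraries correlated best with their own number, and the block gave 3, 5 and 1 members for sORF6, sORF7 and sORF8. Over all genes, calls fell from 572 to 318 for sORF6 and from 1156 to 627 for sORF7 with only the 6 libraries, and rose from 558 to 934 for sORF8 under the length correction and to 963 without the 2 control libraries. Counts of Psma8 and Psmb11 (6.14 to 38.3) limit what can be detected for them.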
